A study of Drosophila melanogaster with 3 samples.

Results

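Tagged Pif1B bound 708 sites in the space between genes, at a moderate distance from the nearest gene start, in pupae of the fruit fly, Drosophila melanogaster. These sites were taken from the authors' list of peaks that passed the irreproducible discovery rate (IDR), a threshold on how well the ranks of peaks repeat between replicates. A peak was counted when its summit lay inside no annotated gene and more than 500 bp but at most 5 kb from the nearest annotated gene start, in genome build dm6. The 708 made up 11.0% of the 6410 IDR peaks. They were set against 3366 weaker regions that met the same position rule, came from the authors' relaxed list of 29999 regions on the pooled replicates, and overlapped no IDR peak. Within each list position chose the regions, and sequence was not used. Neighbourhood entered only where weaker regions that overlap an IDR peak were left out. The IDR list itself rests on signal and on agreement between replicates, so differences in these between the sites and the weaker regions are built in. In effect the 2 sets were split by the peak caller's signal on the pooled replicates. Every site had 83.2 or more and every weaker region 83.0 or less, so each comparison is of high against low pooled signal.

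The flies were a transgenic line that stably expressed Pif1B with a green fluorescent protein (eGFP) at its C-terminus, and an anti-GFP antibody recovered the bound DNA for sequencing (ChIP-seq, that is chromatin immunoprecipitation followed by sequencing). The study has a single group with 3 biological replicates. Male and female pupae of unknown age were pooled in each, and every replicate carried the same tagged transgene. Whole pupae mix all tissues, so a site bound in few cells and a site bound weakly in many cells cannot be told apart. The relaxed lists held 29999, 29999 and 30000 regions in replicates 1, 2 and 3, and peak lists carry no sequencing depth, so the depth of each library is unknown.

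Pif1B, PFTAIRE-interacting factor 1B, is named for its interaction with the cyclin-dependent kinase Eip63E. In the compact fly genome, sequence a short way outside a gene often holds enhancers, which bind transcription factors and raise the activity of a promoter in certain cells, and also insulators, which limit such contacts, and promoters that the annotation lacks. A ChIP-seq peak shows where a tagged protein was recovered, directly on DNA or through other proteins, and does not say which gene, if any, the site acts on. The gene with the nearest start is used below as an address.

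The sequences at the summits of the 6 strongest of these sites show what these places look like, in windows of 101 bases on the plus strand of dm6. Lower case is sequence from RefSeq, and capitals mark every match, on either strand, to 1 of the 10 six-base words of lowest p among those more frequent at these peaks than in the weaker regions (the words were CTAATA, then TAGAAA, then ACTAAA, then ATTTAG, then AGCTAA, then GATCTA, then TAAAAA, then CTAAAA, then ATGGTA, then TCATAA).
CG31668, chr2L:2202350-2202450: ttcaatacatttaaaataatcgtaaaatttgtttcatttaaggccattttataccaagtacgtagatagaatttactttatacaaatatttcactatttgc
CG43389, chr3L:3246456-3246556: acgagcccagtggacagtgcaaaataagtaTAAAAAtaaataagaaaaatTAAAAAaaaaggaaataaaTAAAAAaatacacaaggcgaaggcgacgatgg
lncRNA:CR44713, chr3L:11246173-11246273: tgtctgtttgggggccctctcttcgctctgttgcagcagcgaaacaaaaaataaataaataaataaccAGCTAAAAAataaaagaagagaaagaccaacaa
CG43245, chr3L:10776520-10776620: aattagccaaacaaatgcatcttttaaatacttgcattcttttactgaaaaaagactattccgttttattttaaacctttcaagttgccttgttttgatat
lncRNA:CR45643, chr3R:16222445-16222545: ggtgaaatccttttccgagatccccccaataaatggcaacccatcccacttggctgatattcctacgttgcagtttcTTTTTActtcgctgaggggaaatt
E(spl)malpha-BFM, chr3R:26009042-26009142: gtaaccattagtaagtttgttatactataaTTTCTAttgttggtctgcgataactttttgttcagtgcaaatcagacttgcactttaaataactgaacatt

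The GC content of these 6 windows was 22.8%, 30.7%, 36.6%, 26.7%, 45.5% and 29.7% in the order given. Of the 6, those near CG31668 and CG43245 held none of the 10 words, and the windows near CG43389 and lncRNA:CR44713 held 3 matches each. The 10 words were chosen at these same peaks, so matches in these windows are in part built in. No such count is given for the weaker regions. TAAAAA alone was in 34.7% of all 708 sites and 26.8% of the weaker regions. None of the words passed when the test was stratified by GC content, as described below. Of 20 windows at the strongest sites that were read in this way, 5 held no match, 7 held 1 and 8 held 2 or more. Of these 8, the windows near CG43389 and lncRNA:CR44713 are above, and 4 more are shown here as examples with 2 to 5 matches.
ds, chr2L:715512-715612: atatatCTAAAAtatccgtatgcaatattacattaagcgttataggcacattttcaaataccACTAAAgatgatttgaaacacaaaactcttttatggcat
CG43131, chr3R:5113209-5113309: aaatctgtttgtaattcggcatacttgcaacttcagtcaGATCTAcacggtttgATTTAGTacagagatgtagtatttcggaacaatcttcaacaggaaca
DNAlig3, chr3R:12403088-12403188: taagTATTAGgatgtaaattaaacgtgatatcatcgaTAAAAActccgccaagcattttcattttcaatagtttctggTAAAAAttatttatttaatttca
tara, chr3R:16224490-16224590: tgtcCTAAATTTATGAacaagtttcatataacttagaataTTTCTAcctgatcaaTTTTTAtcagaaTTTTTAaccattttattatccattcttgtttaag

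The CG31668 site also shows a rise of GC content beside an AT-rich summit that was common among these peaks. The central 51 bases of its window were 27.5% GC, whereas the 51 bases centred 250 bp to the left were 64.7% GC and those 250 bp to the right 54.9% GC. Both flanking windows follow, with no capitals since nothing was marked in them.
CG31668 peak, 250 bp to the left, chr2L:2202125-2202175: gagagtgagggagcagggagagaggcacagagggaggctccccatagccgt
CG31668 peak, 250 bp to the right, chr2L:2202625-2202675: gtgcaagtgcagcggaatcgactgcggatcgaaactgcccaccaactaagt

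The strongest intergenic site, with a pooled signal of 1132, lay between COX7AL2, which encodes a cytochrome c oxidase subunit 7A-like protein, and CG31668 on chromosome 2L (2202167 to 2202621, dm6). Signal is the value that the authors' peak caller gave each region, and it ranks regions within a list. In replicates 1, 2 and 3 the overlapping region had a signal of 333, 397 and 433 and ranked 42, 13 and 22 among all regions of that replicate. It was thus near the top of every list, and it ranked 23 in the IDR list. The gap of 5.81 kb between these genes held 3 more of the sites, with signals of 692, 301 and 136, so that the 4 together reached 2261. That of 692, upstream of COX7AL2 (2199191 to 2199508), ranked 197, 145 and 69 in the 3 replicates.

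The next sites by signal were 902 upstream of CG43389 on 3L (3246299 to 3246796), 889 upstream of lncRNA:CR44713 on 3L (11246031 to 11246434) and 783 downstream of CG43245 on 3L (10776386 to 10776747). The CG43389 site ranked 52, 85 and 33 in replicates 1, 2 and 3, and the CG43245 site 105, 55 and 65. The lncRNA:CR44713 site was less even, with ranks of 18, 294 and 54 and signals of 427, 144 and 319 in the same order, so it was lowest in replicate 2. No role is given here for these genes. A site of 733 upstream of lncRNA:CR45643 on 3R (16222338 to 16222660) ranked 109, 105 and 77.

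Among the nearest genes of the 20 strongest sites, some have known roles, which are varied. E(spl)malpha-BFM, a Bearded family protein that restrains Notch signalling, had a site of 724 at 1801 bp upstream of its start (3R, 26008914 to 26009284), which ranked 98, 95 and 110 in the 3 replicates. ds, which encodes the large cadherin Dachsous, a ligand of Fat in planar cell polarity, had a site of 668 at 579 bp upstream (2L, 715399 to 715718), which ranked 168, 88 and 130. Fbxl7, an F-box protein that acts in the Fat pathway, had a site of 630 at 1319 bp upstream (3R, 15919410 to 15919714) that ranked 128, 131 and 174. These 3 sites held their place closely in all replicates. tara, which encodes the transcriptional coregulator Taranis, had a site of 509 at 1111 bp upstream (3R, 16224384 to 16224646), and Gbs-70E, a glycogen-targeting subunit of protein phosphatase 1, a site of 519 at 2070 bp upstream (3L, 14552906 to 14553200).

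The site upstream of ct, which encodes the homeodomain protein Cut, was also uneven between replicates. It lay 3730 bp from the start on X (7604548 to 7604825) and had a pooled signal of 493. Its signals were 207, 74.8 and 241 and its ranks 181, 1197 and 132 in replicates 1, 2 and 3, so replicate 2 stood apart from the other two. The rest of the 20 were near CG18404 (689), CG43131 (683), CG17896 (669), DNAlig3, a DNA ligase (552), lncRNA:CR44761 (550), CG13898 (494), lncRNA:CR42794 (493) and CG11964 (493). Each of the 20 was overlapped by 1 of the 6410 strongest regions of every replicate.

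**Figure D1:**
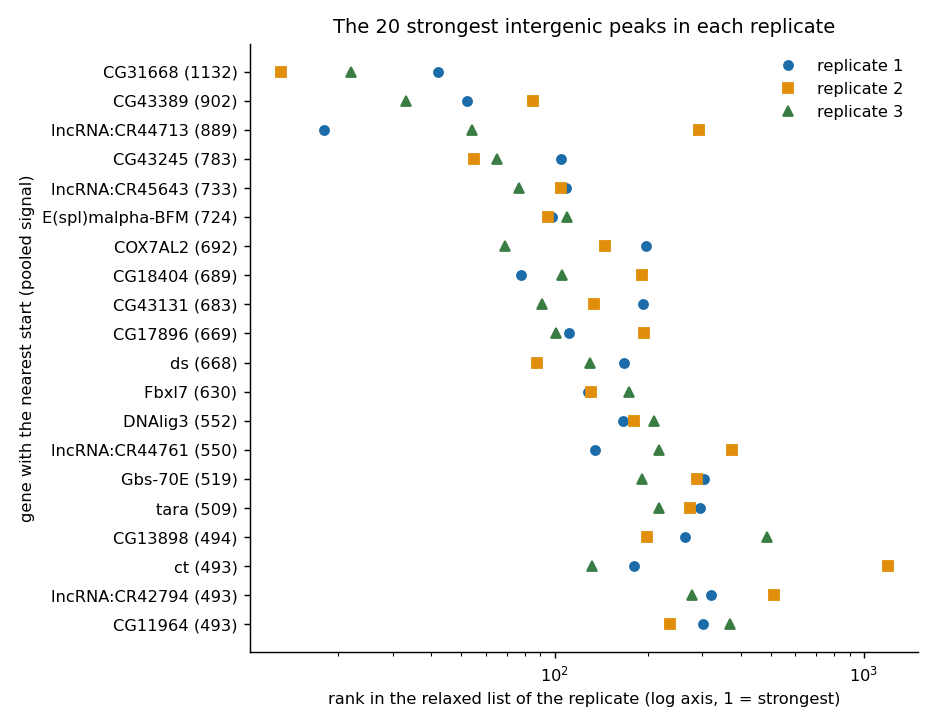
Rank of the region that overlaps each of the 20 strongest intergenic peaks in the relaxed list of each replicate, on a log axis, with the pooled signal beside the gene name. Each row has 1 point per replicate. The points of the Fbxl7 site lie at 128, 131 and 174, and those of the ct site and the lncRNA:CR44713 site are far wider, from 132 to 1197 and from 18 to 294.

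Over all 708 sites the signal had a median of 135 and quartiles of 100 and 202, and the 90th percentile was 313. The lowest was 83.2, which is the end of the IDR list, and 16 sites reached 500. Replicates 1, 2 and 3 supported 83.1%, 80.2% and 86.4% of the sites with 1 of their 6410 strongest regions (83.2% ± 3.11, SD, n = 3), where support means an overlap of at least 1 bp. All 3 replicates supported 450 of the 708 (63.6%, 95% Clopper-Pearson interval 59.9 to 67.1), close to the 65.6% of all IDR peaks. Of the others, 2 replicates supported 168, 1 replicate supported 82, and 8 had no support. Intervals throughout cover counting error alone, and sites are not replicates.

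Support by all 3 replicates was 100% in the strongest 177 sites, 96.0% in the next 177, 49.7% in the next and 8.47% in the weakest 177, where the median signal was 90.6. The IDR list was made from these replicates, so this gradient is in part built in. With the whole relaxed lists in place of the strongest regions, 702 of the 708 sites (99.2%) and 1309 of the 3366 weaker regions (38.9%) were overlapped in all 3 replicates. With summits required to lie within 100 bp, 382 of the 708 sites (54.0%) were supported by all 3.

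The sites did not stand apart by strength from the other peaks away from starts. Among the 708, 48.6% reached the median signal of the IDR list, against 43.0% of the 363 intergenic peaks beyond 5 kb and 50.3% of the 3288 intronic peaks more than 500 bp from a start. Odds ratios were 1.25 (95% Woolf interval 0.972 to 1.62) and 0.935 (0.795 to 1.10), with adjusted p = 0.139 and 0.505 (two-sided Fisher's exact tests across peaks, Benjamini-Hochberg adjustment over 6 tests). Support by all 3 replicates had odds ratios of 1.10 (0.844 to 1.42) against the farther intergenic peaks and 0.847 (0.715 to 1.00) against the intronic ones (exact adjusted p = 0.505 and 0.139). None of the 6 tests passed 0.05.

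The 708 sites were spread over 498 gaps between genes, but some gaps held several. Of these gaps 368 held 1 site, 82 held 2, 25 held 3, 16 held 4, 5 held 5 and 2 held 6, so that 130 gaps with 2 or more held 340 of the sites. Some neighbours are parts of 1 broad signal, since 74 of the 708 overlapped another IDR peak.

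Both gaps with 6 sites were on chromosome 3. The gap of 10.4 kb between Cyt-c1L, a cytochrome c1-like gene, and lncRNA:CR31044, which are transcribed away from each other on 3R, had signals of 146, 306, 294, 326, 86.7 and 97.8 in order along the gap. At its far end a peak of 1364 lay 120 bp from the start of lncRNA:CR31044. The sites of 326 and 86.7 overlapped each other. The gap of 26.9 kb between CG17154 and vers on 3L had 2 sites near CG17154, of 121 and 85.3, and 4 near vers, of 168, 106, 328 and 373, with 4 IDR peaks of 87.1 to 103, more than 5 kb from either start, between them. The highest signals thus lay at the vers end, and no IDR peak of the gap exceeded the one 831 bp upstream of that start. The sites of 168 and 106 overlapped each other.

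Of the 5 gaps with 5 sites, the 3 of highest summed signal lay beside foxo, Ppa and the noncoding gene pair lncRNA:CR45937 and lncRNA:CR45936. The other two lay between Ids and lncRNA:CR45737 and between lncRNA:CR45392 and lncRNA:CR43253. Upstream of foxo, which encodes the forkhead transcription factor of insulin signalling, sites of 340 and 216 lay at 3324 and 4669 bp from the start on 3R (14053435 to 14053727 and 14052061 to 14052490). The first ranked 654, 493 and 821 and the second 2179, 1117 and 1721 in replicates 1, 2 and 3. Another site, of 116, overlapped the second, and a peak of 126 lay 242 bp from the foxo start, so the distal sites of 340 and 216 had the higher signals. The gap between lncRNA:CR44761 and Ppa, an F-box gene, had its highest signals of 341 and 550 at 2825 and 4696 bp upstream of lncRNA:CR44761, and each had a second, weaker summit about 200 bp beside it. Between lncRNA:CR45937 and lncRNA:CR45936 the signals along the gap were 345, 268, 204, 140 and 85.2. Those of 140 and 85.2 came from sites that overlapped each other.

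**Figure D2:**
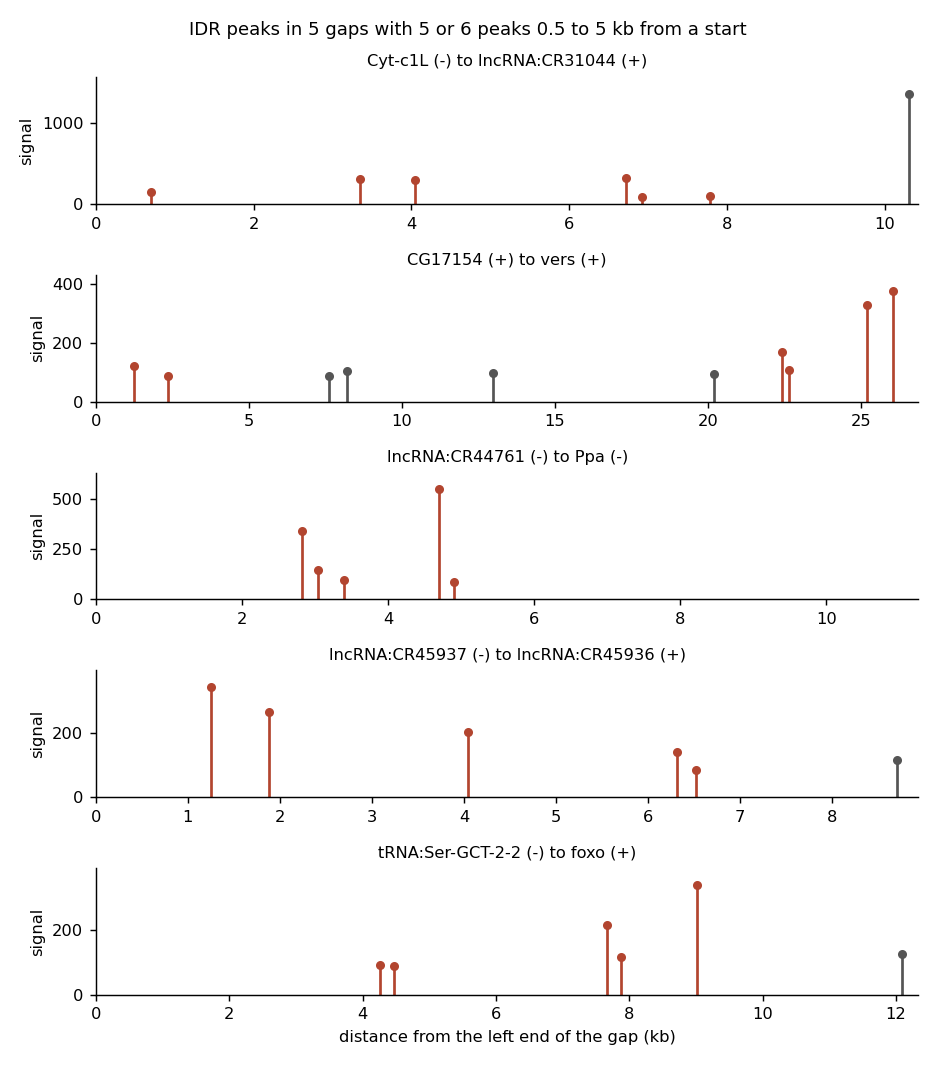
Signal of every IDR peak in the 2 gaps with 6 intergenic sites and in the 3 of highest summed signal among the 5 gaps with 5 sites, against distance in kb from the left end of the gap. Red marks the sites 0.5 to 5 kb from a start, dark grey the other IDR peaks, and the strand of each flanking gene is in brackets. Sites of 328 and 373 stand at the vers end of their gap, and the peak of 1364 at the right end of the first gap is at the start of lncRNA:CR31044.

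The nearest start belonged to 534 different genes, or 2.92% of the 18277 genes on the chromosome arms, and 347 of them were protein-coding, or 2.48% of 13968. A protein-coding gene was nearest to 431 sites, a noncoding RNA gene to 247 (34.9%), a tRNA gene to 24, a pseudogene to 5 and a snoRNA gene to 1. Any region of this position class, strong or weak, was nearest to 2186 genes, which include the 534. How many members of a gene list can have such a site depends on how much intergenic sequence lies beside them, so for each list the number with any region is given as well. The list shares below stand beside 2.48% of all protein-coding genes, and beside 534 of the 2186 genes with any region. The lists were not tested, since genes and lists were chosen with earlier results known.

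Genes of the ecdysone response, the steroid cascade that drives metamorphosis, had a site nearest to 6 of 33 list members (18.2%), and 11 of the 33 had any region. The 9 sites had a median signal of 106, below the 135 of all 708. The strongest was 158 at 1613 bp upstream of Hr38, a nuclear receptor gene (2L, 20715986 to 20716415), which ranked 1867, 5956 and 3601 in replicates 1, 2 and 3. shd, which encodes the P450 enzyme that makes 20-hydroxyecdysone, had 3 sites upstream, of 129, 100 and 92.6, none of them supported by all 3 replicates. Eip93F, a transcription factor of late metamorphosis, had one of 106 at 4977 bp, Blimp-1, an ecdysone-induced repressor, had 105 and 97.5, and chinmo, a temporal identity factor, had 113. Eip63E, the kinase for which Pif1B is named, had a site of 128 at 1523 bp upstream (3L, 3514013 to 3514442) that ranked 2794, 5046 and 3659.

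Signalling genes made up the list with the most such genes after the chemoreceptors, by count alone and with lists of unequal size. Among morphogens, their receptors and their inhibitors, 8 of 48 (16.7%) were nearest to a site, 15 had any region, and the median signal of the 9 sites was 149. fz, the Frizzled receptor of Wnt signalling and planar polarity, had 318 at 1711 bp (3L, 14272570 to 14272767), with signals of 96.9, 108 and 124 and ranks of 1127, 585 and 702 in the 3 replicates. Dad, the inhibitory Smad of Dpp signalling, had 243 at 1072 bp (3R, 17052905 to 17053077), with signals of 79.5, 77.2 and 82.8 and ranks of 1592, 1128 and 1482. Both were in the upper part of every replicate. fz3, another Frizzled receptor, had 197, nkd, an inhibitor of Wnt signalling, had 171, and each of fz, Dad, fz3 and nkd also had an IDR peak within 500 bp of its start. ths, a fibroblast growth factor, had 149, upd3, a ligand of the JAK/STAT pathway, had 117, and ptc, the Hedgehog receptor, had 112 and 87.2.

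In the Notch list 3 of 32 genes (9.38%) had 5 sites, and 7 had any region. Besides E(spl)malpha-BFM, E(spl)m2-BFM, another Bearded family gene, had 303 at 520 bp (3R, 26017972 to 26018105), ranked 1176, 903 and 846. bib, which encodes the channel-like protein Big brain, had 146, 128 and 85.9, of which the first pair overlapped and the last had no support from any replicate. Axon guidance and adhesion genes numbered 6 of 40, with 16 having any region, and their 11 sites had a median of 118. In ft, which encodes the cadherin Fat, the receptor of Dachsous, sites of 308, 136 and 118 lay upstream, the first pair overlapping. The ft site of 118 had a signal of only 8.25 in replicate 2, at rank 27347. The gene ed, for an adhesion protein of the immunoglobulin family, had 284 and 87.9. ds had 115 and 105 beside its 668. trn had 141, robo2, a Slit receptor, 107, and NetB, a netrin, 86.1.

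In the cell cycle and growth list 2 of 32 genes (6.25%) had a site, 3 had any region, and the median signal of the 3 sites was 258. ex, which encodes Expanded, an upstream regulator of Hippo signalling, had 456 at 3680 bp and 258 at 1000 bp upstream (2L, 427409 to 427672 and 430156 to 430331). The farther one ranked 212, 491 and 598 and the nearer 1409, 807 and 1388 in replicates 1, 2 and 3. Myc had 217 at 1708 bp upstream on X (3371236 to 3371665), ranked 2828, 1435 and 1252.

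Cuticle protein genes, which build the exoskeleton, were nearest to 5 sites, 1 for each of 5 of 114 genes (4.39%), and 28 of the genes had any region. The 5 were led by Cpr72Eb with 302 at 537 bp and Cpr72Ea with 273 at 1181 bp (3L, 16364251 to 16364528 and 16361371 to 16361536), which ranked 1131, 566 and 1114 and 1590, 692 and 1204 in the 3 replicates. Cpr51A had 207 and Cpr12A had 120, all 5 sites had support from 3 replicates, and the median was 207. Chemoreceptor genes had 12 sites at 9 of 230 genes (3.91%, 47 with any region), led by Gr93d (439), Gr93a (236) and Or45b (202). Among eye genes only Rh5, which encodes an opsin, was nearest to sites, 1 of 30 genes (7 with any region), with 4 sites of 315, 276, 180 and 96.8, the first pair overlapping.

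The other lists had from 0 to 3 genes each. Muscle genes had 3 of 33 (6 with any region), Act57B (186), bin (138) and sna (93.1). Segmentation genes had 2 of 24, slp2 (136) and sob (129). Limb and wing patterning genes had 2 of 32, dac (126) and rn (105), and chromatin and insulator factors 2 of 34, ph-d (177 and 115, overlapping) and psq (83.9). Any region was nearest to 8, 16 and 3 genes of these 3 lists. A single gene had a site among heat shock and stress genes (foxo, of 21), immune genes (PGRP-SA, 142, of 29), GATA and blood genes (srp, 115, of 17), chitin and pigmentation (verm, 102, of 35), ribosomal proteins (RpL22-like, 115, of 92) and temporal identity genes (chinmo, of 12). Any region was nearest to 2, 4, 3, 5, 9 and 5 genes of these lists in that order. No site was nearest to any of the 39 neuropeptide and hormone genes, 41 synapse and ion channel genes, 73 mitochondrial ribosomal genes, 15 cell death genes, 12 circadian genes, 10 nuclear receptor genes of that list or 8 Hox genes. Only 4, 5, 0, 3, 3, 2 and 2 of these had any region, in the order given. Over all protein-coding genes 2.48% were nearest to a site, so finding none in lists of these sizes is not read as a result. The nuclear receptor list does not include Hr38, named above.

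The sites lay closer to gene starts, and more often upstream, than the weaker regions. A summit was within 2 kb of the nearest start in 54.0% of the 708 sites (interval 50.2 to 57.7) and in 47.0% of the 3366 weaker regions (45.3 to 48.7), while 45.2% of the bases of this position class were that near. The odds ratio was 1.32 (1.12 to 1.56, exact adjusted p = 0.00159, two-sided exact test of Fisher on regions, Benjamini-Hochberg adjustment over 10 shares). In each replicate alone, its strongest regions of the class exceeded the rest of its list in 3 of 3 cases (means 55.6% ± 1.37 and 47.6% ± 0.289, SD, n = 3). With 3 pairs of replicate values, no two-sided test can go below 0.25, so none was run on them. With 3 kb as the limit the difference was no longer past the threshold (log2 odds ratio 0.10, exact adjusted p = 0.471), nor was it among the sites whose summit is the midpoint of the interval (0.29, exact adjusted p = 0.0510), as it is in nearly all weaker regions.

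Upstream positions held 72.3% of the sites (68.9 to 75.6) and 65.7% of the weaker regions (64.0 to 67.3), and 65.0% of the bases of the class. The odds ratio was 1.37 (1.14 to 1.63, exact adjusted p = 0.00152), and the replicate means were 70.3% ± 1.44 in the strongest regions and 66.5% ± 0.529 in the rest (SD, n = 3), higher in 3 of 3. The 16.3 Mb of the class held 43.6 sites per Mb (40.4 to 46.9). By distance the density was 56.6 per Mb at 0.5 to 1 kb, 49.1 at 1 to 2 kb, 33.5 at 2 to 3 kb, 41.7 at 3 to 4 kb and 35.2 at 4 to 5 kb. The weaker regions declined less, from 224 per Mb in the nearest bin to 187 in the farthest.

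**Figure D3:**
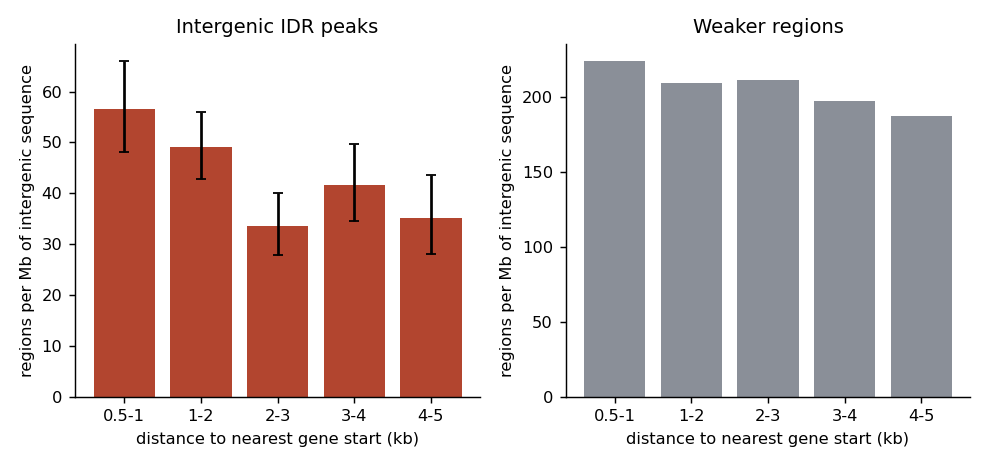
Intergenic IDR peaks (left, with exact 95% Poisson intervals) and weaker regions (right) per Mb of intergenic sequence at each distance from the nearest gene start, in kb. The peaks stand at 56.6 per Mb nearest the starts and at 33.5 per Mb between 2 and 3 kb, where the intervals of these 2 bins do not meet.

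The nearest gene was more often bound at its own start. For 183 of the 708 sites (25.8%, interval 22.7 to 29.2) and 15.2% of the weaker regions (14.0 to 16.5), the gene with the nearest start also had an IDR summit within 500 bp of that start. The odds ratio was 1.94 (1.60 to 2.36, exact adjusted p = 2.13e-10). Within each replicate, summits of its own strongest regions were counted at the start in place of IDR summits. The means of that share were 26.9% ± 1.85 in the strongest regions and 14.4% ± 1.57 in the rest of each replicate list (SD, n = 3), higher in 3 of 3. Weaker regions overlap no IDR peak, so regions close beside a peak at the start can count among the sites alone. Among regions more than 1 kb from a start the log2 odds ratio was 0.82 (exact adjusted p = 2.21e-06, Fisher's test). The 183 sites belonged to 130 genes, of which 88 were protein-coding. The strongest distal site had a higher signal than the strongest peak at the start in 65 of the 130 genes and a lower one in the other 65. At CG43389, COX7AL2, Gbs-70E and ct the distal site was higher, with 902, 692, 519 and 493, against 216, 132, 352 and 228 at the start. At lncRNA:CR31044, by and Tina-1, chosen after their values were seen, it was lower, with 326, 326 and 87.6, against 1364, 560 and 1033 at the start. The by site lay only 506 bp from the start and 210 bp from another IDR summit, so it may be part of 1 broad signal.

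Another IDR summit lay within 2 kb of 356 of the 708 sites (50.3%, 46.5 to 54.0) and of 22.9% of the weaker regions (21.5 to 24.3). The odds ratio was 3.41 (2.88 to 4.03, exact adjusted p = 9.89e-45). Within each replicate, summits of its own strongest regions were counted as neighbours in place of IDR summits. The replicate means of that share were 51.5% ± 0.155 in the strongest regions and 22.1% ± 1.23 in the rest (SD, n = 3). Weaker regions were defined as overlapping no IDR peak, which keeps the closest neighbours out of that set alone. Counting only summits more than 500 bp but at most 2 kb away, in a comparison added after the data were seen, the shares were 44.9% and 22.8% (odds ratio 2.75, exact adjusted p = 4.90e-30).

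Gaps and chromosomes gave less firm differences. Gaps longer than 10 kb held 35.7% of the sites and 42.0% of the weaker regions, with 43.1% of the bases (odds ratio 0.768, interval 0.649 to 0.908, exact adjusted p = 0.00355), but this was no longer past the threshold in 5 of 12 alternatives, and with 1 region per gap the log2 odds ratio was -0.15 (exact adjusted p = 0.394). Chromosome X held 64 of the 708 sites (9.04%, 7.03 to 11.4) and 12.8% of the weaker regions (11.7 to 14.0), with 14.6% of the bases of the class. The odds ratio was 0.677 (0.513 to 0.892, exact adjusted p = 0.00754), with replicate means of 9.25% ± 1.13 and 12.3% ± 0.454 (SD, n = 3), lower in the strongest regions in 3 of 3. The X share was no longer past the threshold among the 3205 strongest IDR peaks (log2 odds ratio -0.47, exact adjusted p = 0.109), with 1 region per gap (-0.41, adjusted p = 0.140) or with protein-coding genes alone defining the gaps (-0.23, adjusted p = 0.300). The X held 19.2% of all IDR peaks. Arm 3L held 233 sites (32.9%) and 25.7% of the weaker regions, a difference that was not tested.

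Gaps between divergent genes held 30.9% of the sites and 28.8% of the weaker regions (odds ratio 1.10, interval 0.926 to 1.32, exact adjusted p = 0.275), and gaps between convergent genes 18.8% and 20.7% (0.886, 0.721 to 1.09, adjusted p = 0.275). The divergent share passed only with protein-coding genes alone defining gaps and starts (log2 odds ratio 0.44, exact adjusted p = 0.00167). A protein-coding nearest gene was found for 60.9% and 64.0% (0.877, 0.742 to 1.04, exact adjusted p = 0.153).

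**Figure D4:**
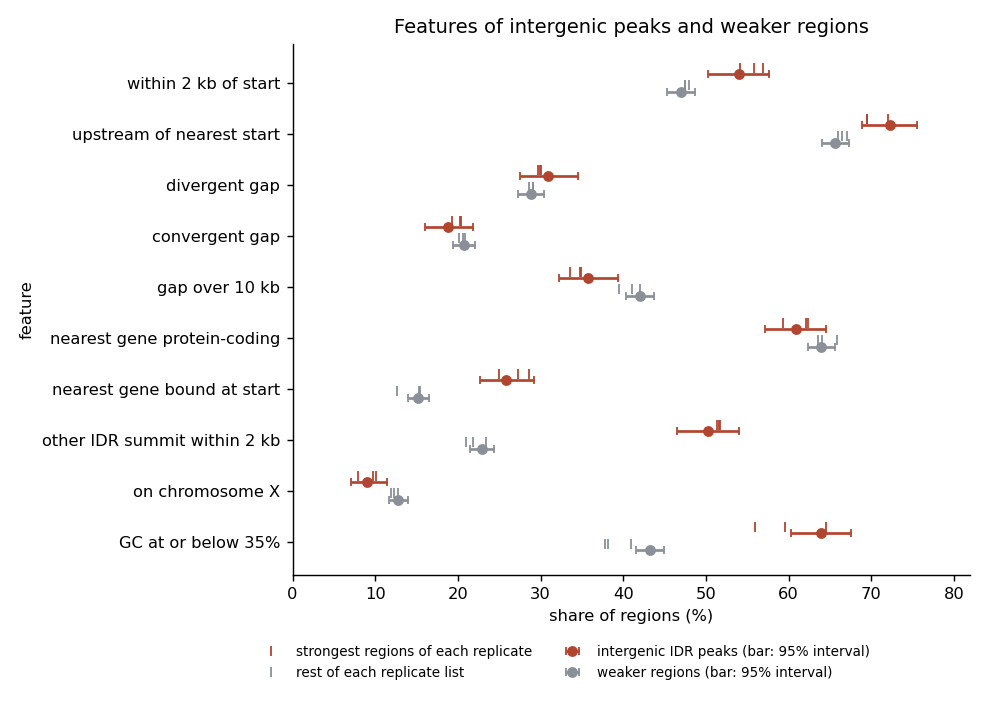
Share of regions with each of 10 features, in percent, for the 708 intergenic IDR peaks (red) above the 3366 weaker regions (grey). Points with bars are shares with 95% Clopper-Pearson intervals. Small vertical ticks are the shares in each replicate, for its strongest regions (red) and the rest of its list (grey). For start-bound genes and nearby summits, the ticks count summits of that replicate's own strongest regions in place of IDR summits. The widest separation is in nearby IDR summits, 50.3% and 22.9%.

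Summits were AT-rich. In the 101 bases at the summit, 64.0% of the sites (60.3 to 67.5) and 43.2% of the weaker regions (41.5 to 44.9) had a GC content of 35% or less, with an odds ratio of 2.34 (1.97 to 2.76, exact adjusted p = 3.81e-23). The replicate means were 60.1% ± 4.30 in the strongest regions and 38.9% ± 1.70 in the rest (SD, n = 3), higher in 3 of 3. Mean GC content was 33.4% ± 8.70 over the sites (SD, n = 708) and 37.6% ± 10.2 over the weaker regions (SD, n = 3366). The summit was the exact midpoint of the interval in 73.9% of the sites and all but 1 of the weaker regions, so summits of the weaker regions may be placed less precisely. Among sites with midpoint summits alone the direction and the call of the GC difference were the same.

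The low GC was narrow and had GC-richer shoulders. In windows of 51 bases the mean was 45.9%, 32.8% and 46.1% GC at 250 bp left, at the summit and at 250 bp right for the sites, against 42.9%, 37.3% and 42.9% for the weaker regions. The summit window was lower in GC than both of these flanks in 462 of the 708 sites (65.3%, 61.6 to 68.8) and in 46.7% of the weaker regions (45.0 to 48.4). It was so in 79.1% of the intergenic peaks beyond 5 kb and 61.8% of the intronic peaks. The distance of 250 bp was chosen after the profile was seen, and these shares were not tested. The share at or below 35% GC was 64.0% at the sites, against 69.4% of the farther intergenic peaks (odds ratio 0.782, 0.597 to 1.03, exact adjusted p = 0.139) and 58.8% of the intronic peaks (1.25, 1.05 to 1.48, adjusted p = 0.0601).

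**Figure D5:**
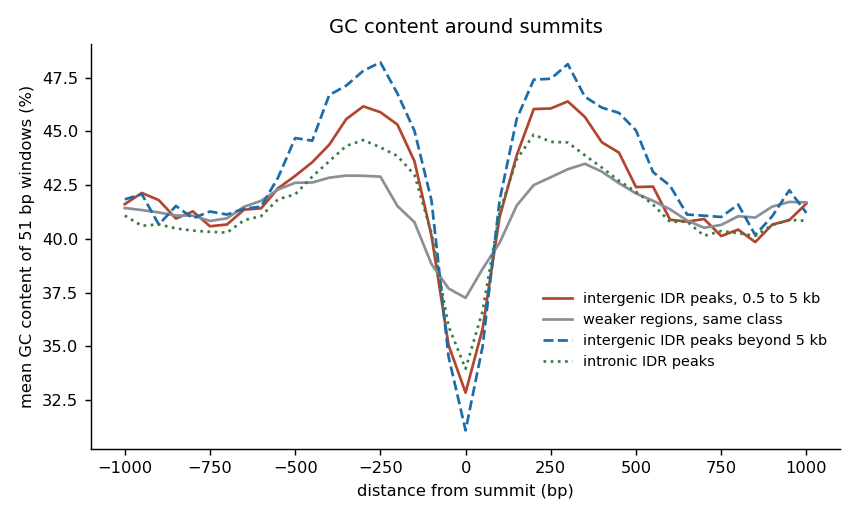
Mean GC content, in percent, of windows of 51 bp at each distance in bp from the summit, for the 708 intergenic IDR peaks, the 3366 weaker regions of the same class, the 363 intergenic IDR peaks beyond 5 kb and the 3288 intronic IDR peaks. The vertical axis does not start at 0. The sites dip to 32.8% at the summit and reach 46.1% at 250 bp to the right, and the weaker regions have a shallower dip to 37.3%.

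Of all 2080 six-base words, counted with their reverse complements in the 101 bases at the summit, 46 (2.21%) differed in frequency between the sites and the weaker regions (two-sided Fisher's exact tests, adjusted p under 0.05 over all words). Of these, 27 were more frequent at the sites and 19 less. The words of lowest p were CTAATA, in 9.46% of the sites and 4.58% of the weaker regions (exact adjusted p = 0.00212), and TAGAAA, in 14.7% and 8.85% (exact adjusted p = 0.00569). GATCTA was in 5.37% and 2.26% (exact adjusted p = 0.00843). Among words less frequent at the sites, CCCAGC was in 1.27% of the sites and 4.19% of the weaker regions (exact adjusted p = 0.0126), and the next were GCCAAC, then ACGGCG, then CTGGCC, then GCCGCA.

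The words that differed also differed in base composition. The 27 had on average 1.07 G or C bases and the 19 had 4.42. When the test was stratified by the GC content of the window in 5 strata (Cochran-Mantel-Haenszel), no word passed the adjusted threshold, and 102 had an unadjusted p under 0.05, against 356 without the strata. The 33 motifs searched included the simple repeats AAAAAAA and CACACACA. None of the 33 passed Fisher's exact test (0% called), with 3 at an unadjusted p under 0.05. These were the E-box CAGGTG in 1.13% of the sites and 2.97% of the weaker regions, CACACACA in 0.706% and 2.02%, and GAGAG, the core of the GAGA factor site, in 8.33% and 11.4%, each at the lower share in the sites. Motifs were searched as exact letters on both strands, and some overlap (TAAAAAT of Mef2 holds the word TAAAAA). The GATA word GATAAG was in 4.66% and 4.19%, the nuclear receptor word AGGTCA in 1.41% and 1.66%, and CGATA, the core bound by BEAF, in 11.4% and 9.63%.

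Peaks lay close to both distance limits and to the signal limit. Just inside 500 bp were sites near CG43815 at 503 bp (101) and CG17896 at 504 bp (669), and just outside was a peak of 234 at 500 bp from the start of daw, an activin-type ligand. Just inside 5 kb were sites at 4979 bp from lncRNA:CR46197 (147) and 4977 bp from Eip93F (106), and just outside was one at 5009 bp from lncRNA:CR45245 (107). The lowest signal among the sites was 83.2 near lncRNA:CR44794, and the highest among the weaker regions was 83.0 near lncRNA:CR43822.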

How the data were processed

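ChIP-seq of Pif1B-eGFP with an anti-GFP antibody was done on sonicated chromatin of whole pupae in 3 biological replicates of 1 group, per the labels. The authors deposited narrowPeak lists: a relaxed list per replicate, a relaxed list on the pooled replicates and an IDR list, all against a control, per the deposited text files. The signal of each region is the value the authors deposited in the signal column, with no further normalization stated, so replicates were compared by rank. Which aligner, caller and IDR cutoff were used is not given in the sources used here. The control libraries were not analysed here, and depth is unknown.

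Coordinates are in dm6 and 1-based. Genes came from Ensembl release 115 of BDGP6 without transposable elements, and sequence from RefSeq for the same assembly. Each summit was classed by the nearest gene start. Analyses used scipy 1.17.1, numpy 2.4.6, pandas 2.3.3 and, for figures, matplotlib 3.10.9, under Python 3.11.15, and tests were checked on simulated data. Shares were compared by two-sided Fisher's exact tests across regions, with 0.5 added to each cell where one was 0. Members and lists were chosen with earlier results of these data known, and 42 of 635 list entries matched no gene. Named are the genes nearest to the 20 strongest sites, those beside the 5 gaps with the most sites (ties by summed signal), up to 4 per list (others in the lists were named after their values were seen) and those at the limits of the rule. Also named are the 10 words of lowest p among those more frequent at the sites, and fewer among those less frequent. Alternatives covered other annotations, distances, windows, overlaps and thresholds. Leaving out a replicate meant keeping only peaks supported by both of the others, without calling peaks anew.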

Additional observations from a re-analysis of the deposited data

How the results depend on the processing

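Of 168 alternatives, 135 kept direction and side of the threshold (log2 odds ratios are given below). Results that never passed also count as kept. Some settings changed few regions, such as transcript starts, with 713 sites and 3384 weaker regions. Among the 13 settings for the number of words, 3 were kept. The upstream share (0.35 to 0.54), the start-bound share (0.58 to 1.29), the nearby IDR summits (1.23 to 2.14) and the GC share (0.79 to 1.40) kept both in all that were run. The share within 2 kb was no longer past the threshold at 3 kb (0.10) and among members with midpoint summits (0.29), a setting added after the data were seen. The share in gaps over 10 kb was lost with weaker regions found in all 3 replicate lists (-0.29), protein-coding genes alone (-0.23), starts more than 1 kb away (-0.28), 1 region per gap (-0.15) and midpoint summits (-0.30). The X share was lost among the 3205 strongest peaks (-0.47), with protein-coding genes alone (-0.23) and with 1 region per gap (-0.41). The divergent share was -0.0048 among the 3205 strongest peaks and passed with protein-coding genes alone (0.44). To leave out a replicate, only sites supported by both of the others were kept (508, 520 and 490 without replicates 1, 2 and 3). The 3366 weaker regions and the pooled signal stayed as they were. Leaving out a replicate in this way gave -0.30 to -0.24 for the protein-coding share, which passed without replicate 1 (exact adjusted p = 0.0422). For the signal share against intronic peaks it gave 0.079 to 0.10, a change of sign below the threshold. Against intronic peaks, support was 1.03 among the 3205 strongest peaks and 0.33 with the whole relaxed lists, and the GC share passed among peaks that overlap no other (0.38). Against intergenic peaks beyond 5 kb, support was -1.63 with the whole lists and the GC share 0.10 with windows of 100 bp to each side. The number of six-base words past the threshold, 46, was 0 stratified by GC, 3 among the 3205 strongest peaks, 1 with weaker regions in all 3 lists, 12 more than 1 kb from a start, 6 with 1 region per gap, 9 with protein-coding genes alone, 3 with midpoint summits and 15 to 21 when a replicate was left out, where fewer members are tested. A motif passed in 2 settings, 1 among the 3205 strongest peaks and 1 with protein-coding genes alone. Other causes were not tested. Members without midpoint summits could not be compared, since 1 weaker region is of that kind. No paired analysis was possible because there is 1 group.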

Other observations

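Other genes were also nearest to several sites, and those named here were picked after their values were seen. The noncoding gene lncRNA:CR45737 on 3L was nearest to 7 sites, with signals from 152 to 408 at 907 to 4515 bp from its start, all supported by 3 replicates. Its sites of 198 and 192 overlapped each other and shared the same region of each replicate. On the far side of this gene lies sty, which encodes Sprouty, an inhibitor of receptor tyrosine kinase signalling, and the gap between lncRNA:CR45737 and sty held 4 of the sites. lncRNA:CR45392, also on 3L, had 5 sites of 99.6 to 321 within a gap of 3.02 kb, all supported by 3 replicates, and that gap held no weaker region of the class. Of these 5, the sites of 125 and 99.6 overlapped each other. Dyro had 4 sites, of 93.4 to 195, all supported by 3 replicates. The tRNA genes tRNA:Gly-TCC-2-2 and tRNA:Phe-GAA-1-6 were each nearest to 4 sites, of 127 to 187 and 91.5 to 177. All 3 replicates supported 4 of the 4 sites at the first gene and 2 of the 4 at the second. In all, 33 genes were nearest to 3 or more sites and 122 to 2 or more.

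The upstream share was 71.8%, 71.2%, 72.3% and 74.0% in 4 sets of 177 sites by falling signal, and the X share 9.04%, 9.60%, 8.47% and 9.04%. The share within 2 kb of a start was 61.6%, 52.0%, 55.9% and 46.3% in the same order. Midpoint summits made up 23.7%, 78.5%, 96.6% and 96.6%.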
